A study of Mus musculus with 6 samples.

Results

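Orphan and adhesion G protein-coupled receptors were compared between WT cells and IG27 cells. The members were the genes whose symbol is Gpr with a number, apart from *Gpr17*, or Adgr with a letter and a number. There were 103 of them, 75 Gpr genes and 28 Adgr genes, of 22907 genes with a named probe, and 99 had a probe on the array. Both groups were OS3 cells, an immortalized glial line from the brain of newborn male C3H mice (C3H/HeN in the study's methods). WT cells (OS3-vector) carried the empty plasmid, and IG27 cells (OS3-H3F3A_K27M) carried the plasmid for histone H3.3 with lysine 27 replaced by methionine, a mutation frequent in diffuse midline glioma of children. Each group had 3 dishes, grown for 2 days in the same medium with serum, insulin and added glucose, and each dish gave 1 single-color array. Cells were selected with drug after transfection and clones were kept, so the mutation and the history of the selected cells cannot be told apart, and p-values measure the spread between dishes.

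G protein-coupled receptors span the cell membrane and pass an outside signal to G proteins, which control adenylyl cyclases, phospholipase C and exchange factors of small GTPases. RGS proteins end the signal of the G protein, and receptor kinases and arrestins silence the receptor. Orphans are receptors whose ligand was unknown when they were named, and several have since been given one. Adhesion receptors carry long outer parts that bind matrix proteins and molecules on other cells. In glia, *Adgrg1* is known from the growth of oligodendrocyte precursors, *Adgrg6* from myelination by Schwann cells, and *Adgrd1* from glioblastoma.

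The cells carried glial genes, and markers of other cell types were above background in part. *Gfap*, *Slc1a2*, *S100b*, *Sox10*, *Olig1* and *Olig2* were well above background on every array that carried this flag. *Cx3cr1* and *Ptprc* of microglia, *Cdh5*, *Cldn5* and *Tek* of endothelium, *Lum* of fibroblasts, *Rbfox3* and *Syt1* of neurons and *Gja1* of astrocytes were well above background on none. Of the 8 microglia and macrophage markers, 5 were above it on all WT arrays and 6 on all complete IG27 arrays, *Itgam*, *Tmem119*, *Csf1r*, *P2ry12* and *Cd68* in both groups. *Pecam1* of endothelium, *Col1a1* and *Pdgfrb* of fibroblasts and pericytes, and *Snap25* and *Tubb3* of neurons were also above it in both. The summed linear level of the 7 astrocyte markers, relative to the 75th percentile of the array, was 95.8 to 106 in WT cells and 55.1 to 63.4 in IG27 cells. *Gfap*, by far the brightest of them, differed by -1.07 on the log2 scale, whereas *S100b* differed by 4.93 and *Slc1a3*, above background in IG27 cells only, was at least 20.6-fold higher. That of the 6 oligodendrocyte progenitor markers was 58.7 to 61.7 and 59.1 to 60.7, that of the 8 microglia markers 15.4 to 16.3 and 14.9 to 15.3, and that of the 4 neuron markers 17.5 to 19.9 and 6.68 to 7.42. The fall of the neuron sum is that of *Tubb3* (-2.63), while *Snap25* (-0.11) was not called. Of the microglia markers, 4 were called higher, with *Itgam* (0.20) the brightest, and 2 lower, *Tmem119* (-0.76) and *Csf1r* (-1.57). The progenitor sum is mostly *Sox10* (-0.37), while 4 of its 6 genes were called higher: *Pdgfra* by 2.36, *Olig1* by 1.48 and *Olig2* by 1.51 on the log2 scale, and *Gpr17*, above background in IG27 cells only, at least 80.1-fold. That of the 6 fibroblast and pericyte markers was 126 to 129 and 64.3 to 69.6, and that of the 5 endothelial markers 0.172 to 0.194 and 2.60 to 2.67, the latter through *Kdr*. Of the fibroblast and pericyte markers, *Col1a1* (-0.92) and *Pdgfrb* (-1.16) were lower. *Dcn*, above background in IG27 cells only, was at least 3.32-fold higher. The part of these markers in the receptor values was not tested. The 3 probes of *H3f3a*, the gene on the plasmid, differed by 0.17, -0.26 and -0.20 on the log2 scale between IG27 and WT cells. Their levels do not tell mutant from normal transcripts, so the mutation itself was not checked here.

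Most of the receptors gave no signal to compare. Of the 99 with a probe, 39 were tested, which asks that all complete arrays of a group show the gene well above background, the scanner software's own flag for a spot. By the same rule 14893 of all 22907 genes with a named probe were tested, a larger share than among the receptors. Complete arrays are the 5 whose scanner output is whole. IG27 replicate 2 has values but no such flags. Of the 60 other receptors with a probe, 52 were above background on no complete array and 8 on some. No member was tested among the 4 proton-sensing receptors or the 11 receptors for lipids and small metabolites, such as *Gpr34*, *Gpr84* and *Gpr183*. By contrast 9 of 10 proteins of intracellular membranes or cilia were tested. Of the 39, 34 were above background in both groups, 4 in WT cells only (*Gpr61*, *Gpr173* and *Gpr149* among them), and *Gpr39* on 1 of 3 WT arrays and on both complete IG27 arrays.

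The tested receptors differed between the groups about as often as other genes, and in both directions. Values are log2 of the processed signal minus the 75th percentile of the array, and a call is an adjusted p under 0.05 in limma. Of the 39, 12 were higher in IG27 cells (30.8%), against 30.5% of all 14893 genes tested. A further 13 were lower (33.3%), against 40.0% of all genes, and 14 were not called. Together 25 were called (64.1%), against 70.5% of all genes. The groups did not overlap in 24 of the 39, against 75.7% of all genes. The called shares are near those of the array as a whole, and the share without overlap is lower. They were not tested against it and say nothing particular about the receptors. Restricted to the 34 receptors above background in both groups, 11 were higher and 11 lower, against 28.6% and 41.1% of 13522 such genes.

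A call with a fitted size of at least 2-fold was found for 7 receptors higher and 6 lower in IG27 cells. Of all genes, 11.4% and 11.7% were called at this size. Among receptors above background in both groups it was 6 higher and 4 lower, without *Gpr39*, *Gpr61* and *Gpr173*. The median log2 difference was -0.03 for the receptors and -0.07 for all genes, and the median size without sign was 0.56 and 0.47. The adhesion receptors gave 3 higher, 4 lower and 4 not called of 11 tested. The Gpr genes gave 9 higher, 9 lower and 10 not called of 28 tested.

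**Figure D1:**
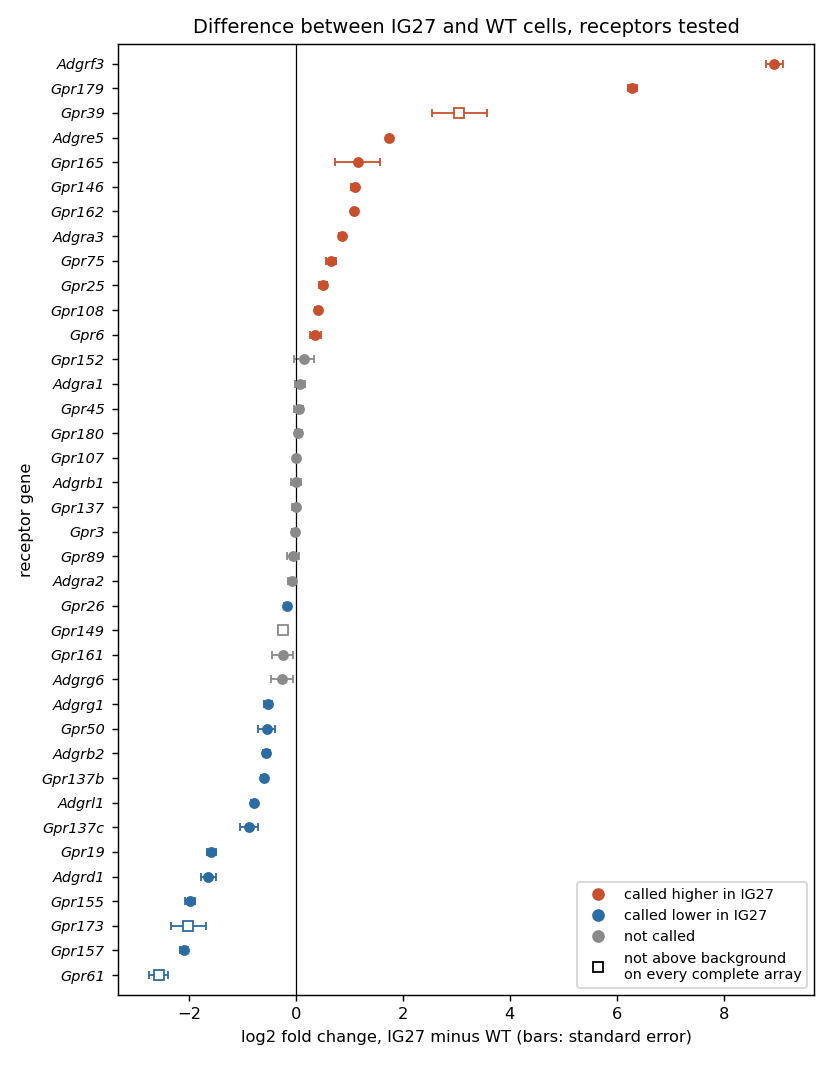
Log2 fold change (IG27 minus WT, horizontal axis) of the receptors tested (1 of the 39 is not drawn), with bars for the standard error of the limma fit (3 arrays per group). Filled circles are receptors above background in both groups and open squares the others. *Adgrf3* (8.95) and *Gpr179* (6.29) lie far to the right of the rest, while *Gpr157* (-2.10) has the largest fall among receptors above background in both groups. The fitted values of *Gpr61* and *Gpr173* (open squares) rest on IG27 signals not above background and are no measured folds.

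**Figure D2:**
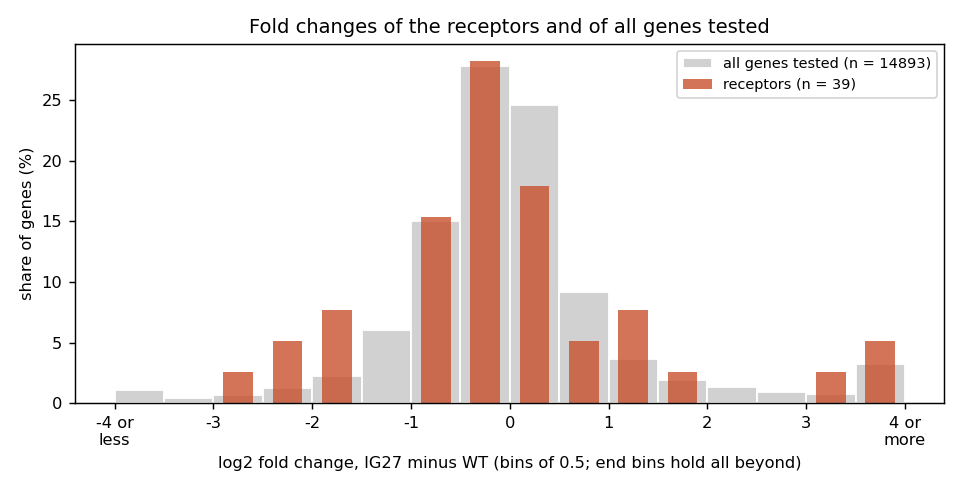
Share of genes (vertical axis, %) by log2 fold change between IG27 and WT cells in bins of 0.5, for the 39 receptors (narrow bars) and for all 14893 genes tested (wide gray bars). The bulk of both sets lies between -1 and 1, and 2 receptors fall in the last bin, which holds every value of 3.5 or more.

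The largest differences belonged to *Adgrf3* and *Gpr179*. *Adgrf3*, an orphan adhesion receptor on chromosome 5, measured -5.59, -5.08 and -5.67 in the WT dishes and 3.42, 3.49 and 3.59 in the IG27 dishes. The WT values lie just above the lowest signals that the flag accepts, which run from -6.01 to -5.33 over the arrays, and the IG27 values lie far above them. The difference was 8.95 ± 0.16 (SE, 494-fold; adjusted p = 1.68e-07), number 20 from the top among all genes tested. The second probe of *Adgrf3* was above background on 2 of 3 WT arrays and on both complete IG27 arrays and differed by 4.99 in the same direction, so the size depends on the probe. With normexp background correction the brightest probe differed by 7.04.

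*Gpr179*, on chromosome 11, is a class C orphan known from the retina, where bipolar cells need it to answer to light. It measured -3.75, -3.53 and -3.68 in WT cells against 2.71, 2.66 and 2.55 in IG27 cells. The groups were far apart, and the dishes of each group lay close together. The difference was 6.29 ± 0.08 (SE, 78.4-fold; adjusted p = 7.42e-08), number 123 from the top, and 5.53 with normexp background correction.

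*Gpr39*, a receptor for zinc ions, measured -7.28, -5.51 and -5.28 in WT cells and -3.01, -2.94 and -2.98 in IG27 cells. All IG27 values were above all WT values, and only 1 WT array was above background, so the size of 3.05 ± 0.52 (SE; adjusted p = 0.00213) rests on WT values at the limit of the signal. It was 2.42 without WT replicate 1 and 1.26 with normexp background correction, with the call kept in both. Its second probe was above background on no complete array. *Gpr75*, reported to answer to a chemokine, differed less, by 0.65 ± 0.09 (SE; adjusted p = 9.07e-04). The other 6 receptors listed with peptide, protein or zinc ligands, among them *Gpr37* and *Gpr1*, were not tested.

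*Adgre5* (CD97), which binds the complement regulator CD55 and is known from leukocytes, measured 0.67, 0.68 and 0.69 in WT cells and 2.48, 2.38 and 2.41 in IG27 cells. The dishes of each group lay close together, and the difference was 1.74 ± 0.05 (SE, 3.35-fold; adjusted p = 6.94e-07). *Gpr146*, an orphan linked to blood cholesterol through the liver, measured -0.53, -0.48 and -0.33 in WT cells and 0.68, 0.67 and 0.60 in IG27 cells, a difference of 1.09 ± 0.07 (SE; adjusted p = 2.03e-05). *Gpr162*, an orphan, also differed by 1.09 (SE 0.04; adjusted p = 3.51e-06), from a WT mean of -0.02 to an IG27 mean of 1.07.

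*Gpr165*, an orphan on the X chromosome, was called higher (1.15 ± 0.42, SE; adjusted p = 0.0480), but its groups overlap. It measured -5.20, -3.61 and -5.01 in WT cells and -3.32, -3.40 and -3.66 in IG27 cells, with WT replicate 2 inside the range of the IG27 dishes. The call was lost in 10 of 17 other settings, of which complete arrays only and leaving out IG27 replicate 2 are the same fit. These include leaving out any single dish but WT replicate 2, with differences of 0.85 to 1.25 (adjusted p from 0.0798 to 0.131).

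Smaller rises were called for 4 further receptors besides *Gpr75*. *Adgra3*, an orphan adhesion receptor tied to Wnt signaling, rose by 0.85 ± 0.05 (SE; adjusted p = 1.49e-05), and *Gpr108*, a Golgi protein that adeno-associated virus needs to enter cells, by 0.41 ± 0.05 (SE; adjusted p = 5.68e-04). *Gpr25*, an orphan, differed by 0.50 (SE 0.07) and *Gpr6*, which raises cAMP without a ligand, by 0.36 (SE 0.11). The call of *Gpr25* was lost in 1 other setting and that of *Gpr6* in 10. Without WT replicate 1 or any IG27 replicate, *Gpr6* differed by 0.34 to 0.38 (adjusted p from 0.0524 to 0.0729).

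**Figure D3:**
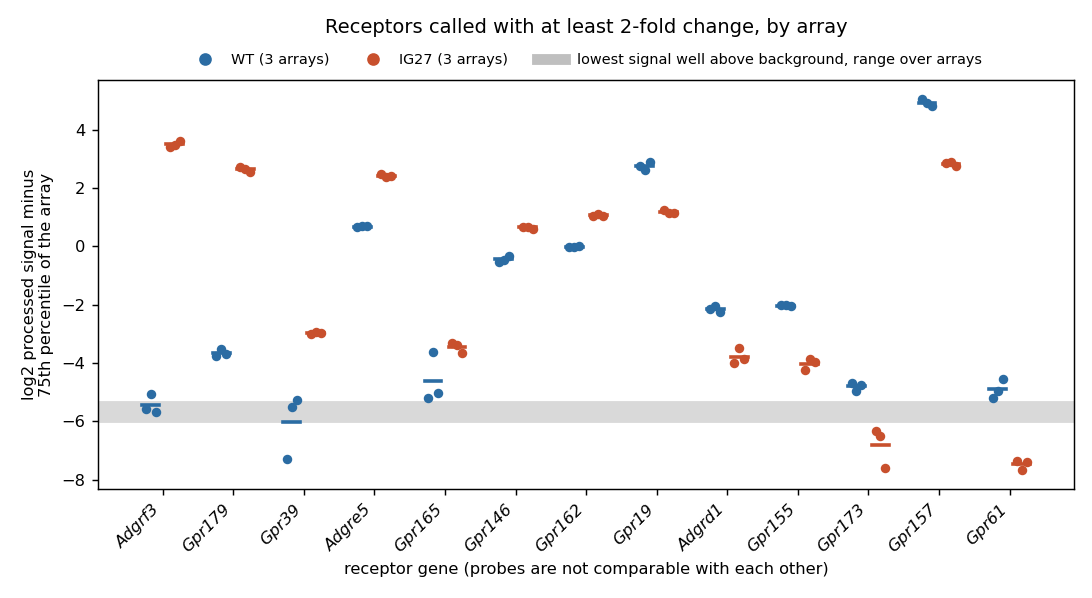
Level of the 13 receptors called with a fitted difference of at least 2-fold. The vertical axis is log2 processed signal minus the 75th percentile of the array. Each dish has a point and each group mean a line. A gray band marks the lowest signal well above background over the arrays. The groups are apart for all but *Gpr165*, and the IG27 values of *Gpr61* and *Gpr173* lie below the band.

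The largest fall among receptors measured in both groups was that of *Gpr157*, on chromosome 4, a receptor described in the cilia of radial glia. It measured 5.06, 4.90 and 4.82 in WT cells and 2.84, 2.89 and 2.74 in IG27 cells. The signal stayed well above background in both groups, and the difference was -2.10 ± 0.08 (SE, 4.30-fold; adjusted p = 2.46e-06). *Gpr155*, on chromosome 2, a cholesterol sensor of the lysosome that acts on mTORC1, measured -2.03, -2.02 and -2.04 in WT cells against -4.22, -3.87 and -3.96 in IG27 cells. Here the difference was -1.99 ± 0.10 (SE, 3.97-fold; adjusted p = 6.90e-06).

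*Adgrd1* (GPR133) measured -2.13, -2.06 and -2.24 in WT cells and -4.02, -3.50 and -3.86 in IG27 cells, a difference of -1.65 ± 0.14 (SE; adjusted p = 8.00e-05). *Gpr19*, an orphan, measured 2.75, 2.63 and 2.90 in WT cells and 1.24, 1.14 and 1.13 in IG27 cells, a difference of -1.59 ± 0.08 (SE; adjusted p = 9.32e-06). In both the WT dishes were all above the IG27 dishes. The second probe of *Adgrd1* was lower in IG27 cells too (-1.23).

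*Gpr61* and *Gpr173* have only a bound, because they were not well above background on the complete IG27 arrays. *Gpr61*, an orphan of the brain that signals without a ligand, measured -5.20, -4.97 and -4.55 in WT cells and -7.37, -7.68 and -7.39 in IG27 cells, at least 1.36-fold lower. *Gpr173*, of a family of brain receptors strongly conserved among vertebrates, measured -4.67, -4.95 and -4.76 against -6.34, -6.51 and -7.60, at least 1.47-fold lower. The groups are apart in both, but the IG27 values lie under the lowest signal counted as above background, and the fitted sizes (-2.57 and -2.02) are no measured folds; with normexp background correction they were -0.68 and -0.55. The bound sets the WT mean against the mean over the IG27 arrays of that lowest signal; for IG27 replicate 2, which has no flags, the mean of the other IG27 arrays was taken.

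Smaller falls were called for the adhesion receptors *Adgrl1*, *Adgrb2* and *Adgrg1*, while 4 of the 11 adhesion receptors tested were not called. *Adgrl1* (latrophilin 1), a receptor for teneurins, FLRT proteins and neurexins, measured 5.31, 5.36 and 5.40 in WT cells and 4.55, 4.56 and 4.58 in IG27 cells, a difference of -0.79 ± 0.05 (SE; adjusted p = 1.63e-05). *Adgrb2* fell by 0.56 on the log2 scale (SE 0.07) and *Adgrg1* (GPR56) by 0.52 (SE 0.08). *Adgrl1* and *Adgre5* are neighbors on chromosome 8 in the reference gene order, and they differed in opposite directions.

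The lysosomal proteins *Gpr137b* and *Gpr137c* also fell, by 0.61 (SE 0.05) and 0.88 (SE 0.17) on the log2 scale, while their relative *Gpr137* was not called (-0.01, SE 0.07). Every one of the 4 probes of *Gpr137b* was lower in IG27 cells, from -0.82 to -0.42. The list of intracellular and ciliary proteins thus held 1 higher member (*Gpr108*), 3 lower (*Gpr155*, *Gpr137b*, *Gpr137c*) and 5 not called (*Gpr89*, *Gpr107*, *Gpr137*, *Gpr161*, *Gpr180*), with a median of -0.06. *Gpr50*, a relative of the melatonin receptors that does not bind melatonin, differed by -0.56 (SE 0.16; adjusted p = 0.0207) and the brain orphan *Gpr26* by -0.17 (SE 0.06; adjusted p = 0.0389). The call of *Gpr50* was lost in 3 other settings, without WT replicate 3, IG27 replicate 1 or IG27 replicate 3 (-0.54 to -0.52; adjusted p from 0.0560 to 0.0632). The call of *Gpr26* was lost in 10, among them without any single dish but WT replicate 3 (-0.20 to -0.14; adjusted p from 0.0536 to 0.106).

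The 14 receptors not called differed by -0.27 to 0.14, with standard errors of 0.04 to 0.21. The tightest was *Gpr107*, a membrane protein of the Golgi and endosomes, at 1.52, 1.50 and 1.52 in WT cells and 1.52, 1.51 and 1.49 in IG27 cells. *Gpr3*, which raises cAMP without a ligand, differed by -0.03 (SE 0.06), *Gpr180* by 0.04 (SE 0.06), *Adgra1* by 0.06 (SE 0.10), *Gpr45* by 0.04 (SE 0.09) and *Gpr89*, a regulator of Golgi pH, by -0.06 (SE 0.11). *Adgra2* (GPR124), which works with Reck and Wnt7 in brain vessels, differed by -0.09 (SE 0.07). *Gpr161*, a ciliary brake on Hedgehog signaling, differed by -0.25 (SE 0.20) and *Gpr152*, an orphan, by 0.14 (SE 0.18). Without WT replicate 3 *Gpr161* differed by -0.47 (adjusted p = 0.00976), and without WT replicate 2 *Gpr152* differed by 0.36 (adjusted p = 0.00827).

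The values of 3 others of these 14 depended on a probe or a dish. *Adgrg6* (GPR126) measured 1.36, 2.06 and 2.18 in WT cells and 1.63, 1.59 and 1.58 in IG27 cells, with WT replicate 1 below all IG27 dishes. Without that dish the difference was -0.52 (adjusted p = 0.00102), and its second probe was lower in IG27 cells (-0.42; adjusted p over all probes 7.21e-04). *Adgrb1* (BAI1), a receptor for the engulfment of dead cells, differed by -0.01 on its brightest probe, by -0.73 on a probe above background in WT cells only, and by 0.47 on a probe above background nowhere. *Gpr149*, an orphan above background in WT cells only, differed by -0.25 (adjusted p = 0.0554), and its other probe, above background nowhere, by 0.34. Without WT replicate 2 its difference was -0.31 (adjusted p = 0.0394), and without IG27 replicate 2 it was -0.32 (adjusted p = 0.0338).

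The start regions of the receptors were read as a description. A promoter sequence was matched for 72 of the 103 members and 27 of the 39 tested (RefSeq, GRCm38.p6, 300 bases from 250 before the start). The 250 bases before the start are shown for 2 receptors that rose and 2 that fell, on the strand of the gene, with every CG in capitals. These 4 were chosen after their sequences were seen, because their CG content differs. Not every member follows that contrast. The higher *Gpr146* holds up to 32 CG pairs and the GGGCGGG motif described next within 300 bases of its starts. The lower *Gpr173* holds 9 CG pairs and no such motif. *Adgrf3*, *Gpr61*, *Adgre5*, *Gpr162* and *Adgrd1* were not matched.
Gpr179 (chr11:97352357-97352606, minus strand): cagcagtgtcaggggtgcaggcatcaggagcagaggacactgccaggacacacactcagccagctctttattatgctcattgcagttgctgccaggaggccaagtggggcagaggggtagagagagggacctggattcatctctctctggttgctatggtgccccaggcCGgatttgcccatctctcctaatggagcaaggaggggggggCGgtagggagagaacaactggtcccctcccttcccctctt
Gpr39 (chr1:125676746-125676995, plus strand): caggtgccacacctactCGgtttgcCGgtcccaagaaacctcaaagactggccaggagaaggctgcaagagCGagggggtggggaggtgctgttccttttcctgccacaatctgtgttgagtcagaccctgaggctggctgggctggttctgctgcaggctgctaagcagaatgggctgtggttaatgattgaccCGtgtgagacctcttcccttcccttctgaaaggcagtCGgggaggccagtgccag
Gpr157 (chr4:150087253-150087502, plus strand): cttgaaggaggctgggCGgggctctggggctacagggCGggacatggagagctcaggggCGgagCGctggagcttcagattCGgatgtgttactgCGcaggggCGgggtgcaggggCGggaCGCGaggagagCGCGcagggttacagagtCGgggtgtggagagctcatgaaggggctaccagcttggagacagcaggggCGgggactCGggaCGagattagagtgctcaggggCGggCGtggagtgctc
Gpr155 (chr2:73386481-73386730, minus strand): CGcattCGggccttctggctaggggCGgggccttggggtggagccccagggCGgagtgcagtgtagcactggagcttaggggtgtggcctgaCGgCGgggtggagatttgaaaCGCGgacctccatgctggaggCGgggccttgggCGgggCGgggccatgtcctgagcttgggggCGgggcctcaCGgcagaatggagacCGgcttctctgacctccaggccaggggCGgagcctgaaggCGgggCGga

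The sequences of *Gpr179* and *Gpr39* hold 2 and 5 CG pairs, and those of *Gpr157* and *Gpr155* hold 18 and 17. The letters GGGCGGG, a strict form of the GC box, were searched on both strands. The shorter GGGCGG, which the *Gpr179* sequence holds, was not counted. GGGCGGG occurs 6 times before *Gpr157*, 4 times before *Gpr155* and not in these 250 bases of the other pair. Within 300 bases, 6 of 9 lower receptors with a sequence hold this motif, 2 of 9 higher ones and 2 of 9 not called. It occurs in 27.9% of all promoters and in 47.6% of those of all genes tested. A ratio of observed to expected CG of at least 0.6 was found in 38.9% of the 72 members, 55.6% of the 27 tested and 68.6% of all genes tested. By direction it was found in 4 of 9 higher receptors, 5 of 9 lower and 6 of 9 not called. These counts are few and were given no test.

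The genes that carry the signal of these receptors were lower more often than higher, and the ligands and partners were not. Of 81 signaling genes in 5 lists, 54 were tested. Of these, 29 were lower (53.7%, against 40.0% of all genes) and 8 higher (14.8%, against 30.5%). The 54 include 10 RGS proteins and 8 receptor kinases and arrestins, which end the signal or silence the receptor. The counts therefore give no direction for signaling. Neither they nor the counts of single lists below were tested against the shares of all genes. With the ligands and partners, of 108 genes in 6 lists, 72 were tested, 36 were lower in IG27 cells (50%, against 40.0% of all genes), 17 higher (23.6%, against 30.5%) and 19 not called, with a median of -0.45. In the examples that follow, each gene was above background in both groups and has the largest called difference of its list in its direction, unless it is listed at the end as chosen otherwise.

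Among G protein alpha subunits, 7 of 12 tested were lower and 1 higher. *Gnai2*, which inhibits adenylyl cyclase, differed by -0.69 (SE 0.11) and *Gnaz*, of the same class, by 0.72 (SE 0.08). The main stimulatory subunit *Gnas* fell by 0.54 on the log2 scale. Among beta and gamma subunits, 6 of 13 were lower and 2 higher, from *Gngt2* at -1.62 (SE 0.11) to *Gnb4* at 3.63 (SE 0.08).

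The RGS proteins gave 5 lower and 2 higher of 10 tested. *Rgs8* measured 4.86, 4.86 and 4.80 in WT cells and -0.01, -0.12 and -0.16 in IG27 cells, a difference of -4.94 ± 0.06 (SE; adjusted p = 7.42e-08). *Rgs16* went the other way, by 1.97 ± 0.05 (SE; adjusted p = 3.86e-07). *Rgs4*, above background in WT cells only, was at least 7.51-fold lower.

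Of 8 receptor kinases and arrestins tested, 3 were lower and 2 higher. *Arrb1*, which binds active receptors, differed by -1.38 (SE 0.12) and *Grk5* by 0.26 (SE 0.07). *Grk3*, above background in IG27 cells only, was at least 45.9-fold higher. Of 11 adenylyl cyclases, phospholipase C beta isoforms and GTPase exchange factors tested, 8 were lower and 1 higher, with a median of -0.93. *Adcy1* measured 1.88, 1.80 and 1.90 in WT cells and -2.73, -2.52 and -2.50 in IG27 cells, a difference of -4.45 ± 0.08 (SE; adjusted p = 1.49e-07), and the exchange factor *Arhgef1* differed by 0.73 (SE 0.07).

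Ligands and partners of the receptors were the only one of the 6 lists with a positive median (0.34), with 9 higher and 7 lower of 18 tested. Of the latrophilin ligands, *Tenm4* rose by 3.99 ± 0.12 (SE; adjusted p = 9.10e-07) and *Tenm3* fell by 2.48 on the log2 scale (SE 0.07; adjusted p = 6.89e-07). *Flrt2* and *Flrt3*, above background in IG27 cells only, were at least 48.4-fold and 11.0-fold higher. *Flrt1* was 0.79 higher (SE 0.07), while *Nrxn2* (-0.68, SE 0.88) and *Nrxn3* (-0.05, SE 0.13) were not called. The receptor *Adgrl1* fell in the same cells, as given above.

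Other ligands and partners also went both ways. *Col3a1*, a collagen that binds *Adgrg1*, was 1.57 higher (SE 0.05), while *Col4a1*, a collagen that binds *Adgrg6*, was above background in WT cells only and at least 428-fold lower in IG27 cells. *Prnp*, whose protein activates *Adgrg6*, fell by 1.37 on the log2 scale (SE 0.07). *Reck* was 0.74 higher (SE 0.07) and *Wnt7b* differed by -1.11 (SE 0.16), and their partner *Adgra2* was not called. *Rarres2*, the chemokine-like ligand chemerin, differed by -2.26 (SE 0.08), and its receptor *Gpr1* was not tested. *Rgs4*, *Grk3*, *Flrt1*, *Flrt2*, *Flrt3*, *Nrxn2*, *Nrxn3*, *Col4a1*, *Gnas*, *Col3a1*, *Prnp*, *Reck*, *Wnt7b* and *Rarres2* were named after their values were seen.

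**Figure D4:**
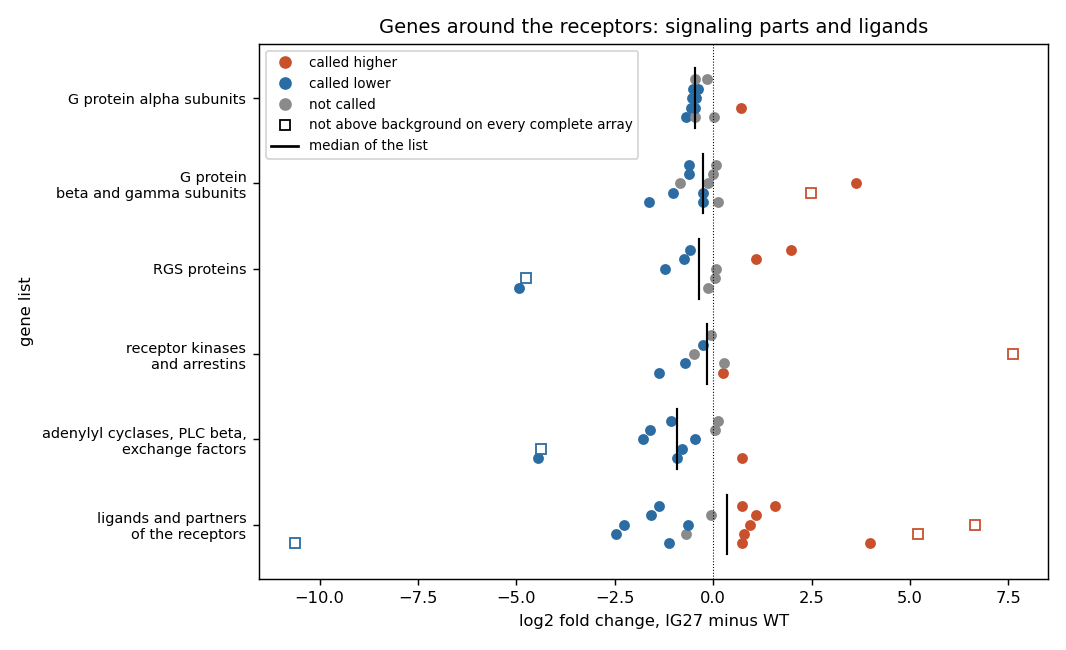
Log2 fold change (IG27 minus WT, horizontal axis) of each tested gene of the 6 lists of signaling parts and ligands, with a black line for the median of a list. Open squares are genes not above background on every complete array. In 5 lists the median lies left of 0, and *Grk3*, *Flrt2* and *Col4a1* lie farthest out, at 7.61, 6.65 and -10.62.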

How the data were processed

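Total RNA of 6 dishes was labeled with Cy3 and hybridized to 6 arrays of 1 mouse expression slide. The authors read the spots with Feature Extraction (9.1 in the submitters' processing notes, 10.7.3.1 in the file headers) and deposited the processed signal, the software's own processed intensity on a linear scale, without scaling between arrays. The labels and the study's methods name different RNA kits. For IG27 replicate 2 the scanner file holds only 285 of 62976 spots, and values came from the deposited value table. That table exchanges WT replicates 2 and 3, which stay within their group, and scanner labels were used.

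From the deposited intensities, log2 values minus the 75th percentile of each array were computed, without the spots flagged as outliers (107 to 210 on a complete array). The number of arrays limits the precision. Between 33289 and 34623 of 56605 probes were well above background on each complete array. Probes were named through RefSeq accessions (29334 of 29638 with the prefix NM matched) with a GRCm38.p6 table, used for names, chromosomes and neighbors; the files' build is mm9, and coordinates are given for promoters only. A gene was represented by its brightest probe. IG27 and WT cells were compared with limma (3.58.1, R 4.3.3; lmFit and eBayes without a block, two-sided), and p was adjusted by Benjamini-Hochberg over all 14893 genes tested and a threshold of 0.05. Only the limma fit was tested on simulated data, in which far fewer genes changed than were called here. Some members are not reported by name here.

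Members and gene lists were chosen with earlier results of these data known. Named in the text are receptors called with a log2 difference of at least 1 and no overlap, those above background in 1 group only, tested receptors with a listed role, receptors not called, and the largest called rise and fall of each list; other genes were named after their values were seen. The alternatives were another normalization, background correction, looser and stricter filters on dim probes, outlier spots kept in, averaged probes, a variance trend, replicate and slide row as blocks, complete arrays only, each array left out, and an unadjusted threshold, which is that of the methods' moderated t-test.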

Additional observations from a re-analysis of the deposited data

How the results depend on the processing

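Of the 25 receptors called, 20 kept the call and its direction in each of the 17 other settings that tested them, and *Gpr165*, *Gpr6*, *Gpr26*, *Gpr50* and *Gpr25* lost it in 10, 10, 10, 3 and 1 (complete arrays only and leaving out IG27 replicate 2 are the same fit). The stricter filter on dim probes left *Gpr39*, *Gpr61* and *Gpr173* untested. The number called higher ran from 9 (normexp background correction) to 14 (no filter on dim probes), and the number called lower from 11 to 17 (quantile normalization); leaving out 1 array gave 10 to 13 higher and 11 to 13 lower. Without a filter the median of all genes moved from -0.07 to 0.12. All IG27 arrays and WT replicate 2 share a slide row, so with the slide row as a block IG27 cells are set against that dish alone. Under it *Gpr165* differed by 0.15 (adjusted p = 0.464), and *Gpr152* turned from 0.14 to -0.28 (adjusted p = 0.0479); the cause was not tested. Of the 14 receptors not called, 6 were called in at least 1 setting. In the pathway lists the settings gave 13 to 22 genes higher and 32 to 38 lower.

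Replicate numbers did not pair the dishes: deviations of dishes with the same number correlated by 0.01, 0.04 and 0.08. With the replicate number as a block, 11 receptors were higher and 12 lower, and 10305 of all genes were called against 10497. For faint receptors the background limits what can be seen, and IG27 replicate 2 carries no flag.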

Other observations

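Of the 8 receptors above background on some complete arrays only, *Gpr33*, *Gpr119*, *Adgrg7* and *Gpr21* were above it on 1 WT array and on no complete IG27 array. *Gpr33* measured -2.51 in WT replicate 3 and -7.71 to -7.20 elsewhere, and *Adgrv1* on 1 of its 3 probes -2.79 in the same dish and -7.99 to -7.56 elsewhere. *Gpr119*, a receptor for lipid amides, measured -5.28 in that dish and -7.81 to -7.41 elsewhere, and *Adgrg7* measured -3.87 in WT replicate 2 and -7.89 to -7.24 elsewhere. On 1 of its 2 probes *Gpr82* measured -8.08 to -7.45 in WT cells and -5.56 to -4.33 in IG27 cells, but only 1 IG27 array was above background, so it was not tested.

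The nearest tested genes on both sides of the 13 receptors called with a fitted size of at least 2-fold were read from the reference gene order. Of 14 neighbors of the 7 higher receptors, 7 were called higher (50%, against 30.5% of all genes), and 3 of them by at least 2-fold. Of 12 neighbors of the 6 lower receptors, 8 were called lower (66.7%, against 40.0%), and 4 of them by at least 2-fold. Among these 8 are *Tspyl2* (-1.32) and *Shroom2* (-2.08) beside *Gpr173*, and *Gnai3* (-0.40) and *Amigo1* (-1.12) beside *Gpr61*. The falls of *Gpr173* and *Gpr61* themselves have only a bound, which is below 2-fold. *Gpr39* lies beside *Lypd1* (4.03), *Gpr162* beside *P3h3* (5.43), and *Gpr155* beside *Wipf1* (-2.08). *Gpr179* lies between *Mrpl45* (-0.35) and *Socs7* (-0.43), which were lower while it was higher, and *Gpr157* has *Slc2a5*, above background in IG27 cells only, on 1 side. The neighbors of *Adgrf3*, *Hadhb* and *Selenoi*, differed by 0.62 each. These counts were not tested, and neighboring genes are not independent of each other.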
